A study of Mus musculus with 19 samples.

Results

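SINE B2 elements are short interspersed repeats of the mouse genome, and the RNA reads and the CpG methylation of these elements were followed in yolk sac tissues, in embryoid bodies and in fetal liver. The members were all rows of the authors' intergenic repeat table whose class was SINE/B2, which gave 202569 of 2634743 repeat elements (7.688%). They carried 5 repeat names, with 9712 elements named B2_Mm1a, 12452 named B2_Mm1t, 48695 named B2_Mm2, 79489 named B3 and 52221 named B3A.

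The study compared cystic embryoid bodies (EBs), fluid-filled aggregates grown from embryonic stem (ES) cells, with the visceral yolk sac endoderm (ysE), the absorptive layer that supplies the early embryo. The repeat table covered 6 RNA libraries. Of these, 2 came from cystic EBs of the JN ES cell clone (female cells of C57BL/6x129 background) after 10 and 15 days of differentiation, which served here as the 2 libraries of the group. The other 4 came from E9.25 FVB embryos, with 2 libraries of ysE (A and B) and 2 of the underlying yolk sac mesoderm (A and B), each from a pooled litter. The layers had been separated by hand after enzyme treatment, and the mesoderm kept its vessels and basement membrane. Whole genome bisulfite sequencing (WGBS) covered another 6 libraries from crosses of the CAST and FVB strains in both directions (CxF and FxC), namely E12.5 ysE, E12.5 liver and day 15 cystic EBs, the latter from the male ES lines CF clone C2 and FC clone A2. Each EB library therefore rested on a single ES clone, and strain, culture and tissue cannot be told apart between EBs and embryos in the RNA data. H3K4me3 peaks, which mark active promoters, came from E12.5 FVB visceral yolk sac.

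B2 elements arose in rodents from a tRNA gene. Intact copies carry the internal promoter of RNA polymerase III (Pol III), made of an A box and a B box, and they move with the reverse transcriptase of L1 LINEs. B2 RNA is known from early embryos and stressed cells, where it can bind RNA polymerase II, and a B2 sequence can also be read as a part of a longer Pol II transcript, in an intron, an untranslated end or a noncoding RNA. Copies of the B2_Mm1 and B2_Mm2 names carry binding sites of CTCF, a factor that shapes chromatin loops.

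The names differed in the alignment score of the repeat annotation, which is taken against the pattern of the name itself and grows with aligned length. The median score fell from 1479 for B2_Mm1a and 1297 for B2_Mm1t to 1136 for B2_Mm2, 705 for B3 and 528 for B3A. Median lengths lay between 165 and 187 bases. The most-read element of each name that lay inside a RefSeq promoter window is printed below to show what the letters of such copies look like, with a further B2_Mm1a copy (RefSeq, GRCm38.p6, 5′ to 3′ in the sense of the B2 element). These windows run from 250 bases before to 50 bases after each gene start, and they were used because no genome sequence was at hand. Capitals mark exact matches to TGGCTCAG, the letters used for the A box, and to GTTCNANNC, the letters used for the B box.

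B2_Mm1a, chr15:8510990-8511181, minus strand: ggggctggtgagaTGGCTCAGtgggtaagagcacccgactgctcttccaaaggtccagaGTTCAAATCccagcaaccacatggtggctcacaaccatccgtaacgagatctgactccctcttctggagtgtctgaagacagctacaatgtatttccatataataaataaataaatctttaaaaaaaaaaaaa
B2_Mm1a, chr7:127696196-127696390, plus strand: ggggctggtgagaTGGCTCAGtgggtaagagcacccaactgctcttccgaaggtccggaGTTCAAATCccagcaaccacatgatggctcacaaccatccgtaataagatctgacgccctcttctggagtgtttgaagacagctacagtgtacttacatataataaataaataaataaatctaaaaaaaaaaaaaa
B2_Mm1t, chr3:64230903-64231100, plus strand: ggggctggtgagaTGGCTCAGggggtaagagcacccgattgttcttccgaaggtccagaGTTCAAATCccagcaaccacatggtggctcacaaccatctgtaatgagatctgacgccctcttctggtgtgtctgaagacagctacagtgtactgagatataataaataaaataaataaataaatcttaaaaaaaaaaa
B2_Mm2, chr9:46272873-46273015, minus strand: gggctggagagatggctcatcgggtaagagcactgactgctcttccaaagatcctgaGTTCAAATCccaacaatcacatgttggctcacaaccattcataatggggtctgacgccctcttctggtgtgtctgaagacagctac
B3, chr17:29457294-29457501, plus strand: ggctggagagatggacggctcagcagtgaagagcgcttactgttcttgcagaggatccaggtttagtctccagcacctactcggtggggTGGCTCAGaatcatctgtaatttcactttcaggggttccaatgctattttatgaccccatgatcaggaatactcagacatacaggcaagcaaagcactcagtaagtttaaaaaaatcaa
B3A, chr14:3947512-3947628, plus strand: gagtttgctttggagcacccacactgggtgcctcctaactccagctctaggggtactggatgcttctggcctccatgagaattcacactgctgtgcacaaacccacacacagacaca

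The A box stood at base 14 and the B box at base 60 in all 3 of the B2_Mm1 sequences, which end in a run of A after copies of AATAAA. Over the aligned bases, identity to the first B2_Mm1a sequence was 93.2% for the other B2_Mm1a copy, 91.7% for B2_Mm1t, 88.8% for B2_Mm2, 67% for B3 and 60.9% for B3A. The B2_Mm2 sequence held the B box alone, at base 58, and the single match in the B3 sequence lay at base 90, away from the place of the A box. Of 117 B2 elements of at least 100 bases inside such windows, both boxes were found in 6 of 8 B2_Mm1a, 8 of 10 B2_Mm1t, 19 of 42 B2_Mm2, 1 of 40 B3 and 0 of 17 B3A elements. On either strand, TGGCTCAG was present in 3.06% and GTTCNANNC in 9.32% of all 32851 promoter windows of 300 bases.

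The 6 RNA libraries held 86063967 to 188223399 reads on repeats, of which 65.94% to 79.38% lay on RNA-gene repeats (rRNA, tRNA and small RNA genes). Shares below are therefore of the 22954164 to 38807888 reads outside these. Reads of single elements were not independent of their surroundings. In each library, 30.89% to 36.4% of the B2 elements with more than 5 reads held exactly as many reads as a neighbouring element of the table. Over all repeats this share was 41.56% to 50.41%. By name it ran from 4.58% to 8.547% for B2_Mm1a up to 52.18% to 63.87% for B3A. A total of 31 B2_Mm1a elements on 12 chromosomes lay within 5% of one common level in all 6 libraries, and so did 15 B2_Mm1t elements on 6 chromosomes, so the source copy of these reads is uncertain. The tissues carried their labelled markers, and ysE markers were also read in mesoderm. The 5 ysE markers (Afp, Ttr, Apob, Amn and Cubn) summed to 8879 and 9683 RPKM in ysE, 991 and 1764 RPKM in mesoderm (14.8% of the ysE level on average, from 9.84% to 21.3% for single genes) and 126 and 457 RPKM in cystic EBs. Mesoderm markers (Kdr, Pecam1, Acta2, Col1a1 and Col3a1) summed to 28.7 and 46.4 RPKM in ysE against 1157 and 1023 RPKM in mesoderm. The embryonic globin gene Hbb-bh1 reached 21200 and 16500 RPKM in mesoderm, and the pluripotency gene Pou5f1 remained at 76.8 and 39.1 RPKM in cystic EBs. The part of these cells in the B2 differences below was not tested, and in such bulk samples fewer cells of a type and less RNA per cell cannot be told apart.

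B2 reads were most abundant in ysE. They made up 16.12% and 17.92% of the reads outside RNA-gene repeats in ysE (17.02% ± 1.27, SD, n = 2), 7.986% and 9.06% in mesoderm (8.523% ± 0.759) and 4.223% and 4.974% in cystic EBs (4.598% ± 0.531). The 3 groups did not overlap, although an exact permutation test of 2 against 2 libraries cannot go below p = 0.33. B1 and B4 elements, other abundant mouse SINEs, followed the same order over a smaller range. B1 ran from 4.801% and 5.342% in cystic EBs to 9.203% and 10.42% in ysE, and B4 from 2.318% and 2.575% to 4.232% and 4.692%. L1 LINEs showed the opposite order, with 30.32% and 31.4% in cystic EBs and 15.57% and 13.23% in ysE.

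Levels per length were taken as RPKM, here reads per kilobase of annotated element with the reads outside RNA-gene repeats as the total. They ran in the order of the alignment scores, except that B3 and B3A lay close together and were reversed in mesoderm B (1.073 and 1.076). B2_Mm1a held 41.24 and 45.93 RPKM in ysE, 16.91 and 20.59 in mesoderm and 5.594 and 7.034 in cystic EBs. B2_Mm1t held 18 and 19.62 in ysE, 7.791 and 9.627 in mesoderm, and 3.485 and 4.41 in cystic EBs. For B2_Mm2 the values were 3.615 and 4.064 in ysE, 1.938 and 1.937 in mesoderm, and 1.236 and 1.415 in cystic EBs. B3 held 1.462 and 1.592 in ysE, 1.032 and 1.073 in mesoderm, and 0.7955 and 0.8869 in cystic EBs, and B3A held 1.317 and 1.572, 1.023 and 1.076, and 0.7845 and 0.8753. The order ysE, mesoderm, cystic EBs was free of overlap for each of the 5 names, as for 13.7% of all 1193 repeat names tested. It also held for 13 of 16 B1, 4 of 4 B4 and 4 of 4 MIR names, so it was shared with the other SINE classes. The 3 B2_Mm1 copies printed above followed it in raw counts, the first B2_Mm1a copy with 355 and 594 reads in ysE, 150 and 191 in mesoderm, and 69 and 94 in cystic EBs. The printed B2_Mm2, B3 and B3A copies did not, and the B3A copy held 39 and 24 reads in ysE, 173 and 141 in mesoderm, and 6 and 248 in cystic EBs. The same shift changed the makeup of the B2 reads, since B2_Mm1a supplied 42.05% and 42.1% of them in ysE but 21.77% and 23.24% in cystic EBs, while B3 supplied 12.04% and 11.79% in ysE but 25.01% and 23.67% in cystic EBs.

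**Figure D1:**
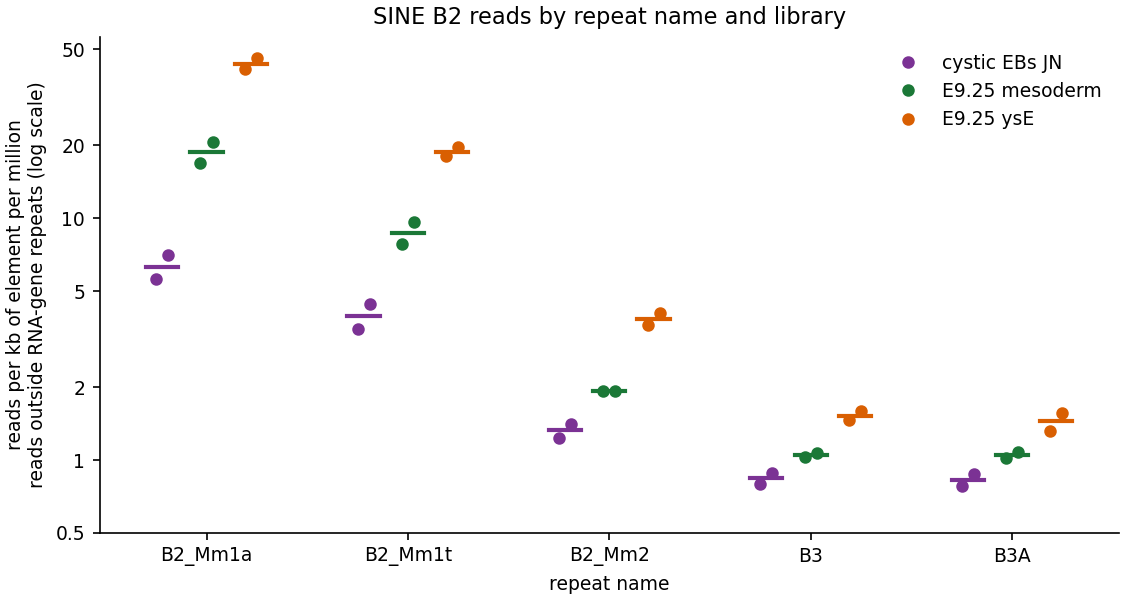
RPKM, with the reads outside RNA-gene repeats as the total (log axis), for the 5 SINE B2 names. Points are libraries and bars are the means of the 2 libraries of a group. ysE lies above mesoderm and cystic EBs for every name, and the distance is widest for B2_Mm1a, at 41.24 and 45.93 against 5.594 and 7.034.

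The comparison of cystic EBs with ysE asks how far the in vitro model resembles the yolk sac layer. In edgeR's quasi-likelihood test over 1193 repeat names, all 5 B2 names were lower in cystic EBs at an adjusted p (Benjamini-Hochberg) under 0.05, where 17.2% of all names were called lower. B2_Mm1a was 6.61-fold lower (log2 fold change -2.72, SE 0.16, adjusted p = 0.000938) and B2_Mm1t 4.56-fold lower (-2.19, SE 0.16, adjusted p = 0.00173). B2_Mm2 was 2.77-fold lower (-1.47, SE 0.12, adjusted p = 0.00239). B3 and B3A were 1.73-fold and 1.66-fold lower (-0.79, adjusted p = 0.00604, and -0.73, adjusted p = 0.0131). The median over all names was 0.03 on this log2 scale. Related classes were also lower, with a median of -0.79 over the 16 B1 names (14 called lower) and of -0.83 over the 4 B4 names (all called lower), close to B3 and B3A. Without the day 10 EB library, 3 names passed (B3 adjusted p = 0.0579 and B3A adjusted p = 0.0862), and without the day 15 library B3A had an adjusted p of 0.0683.

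Cystic EBs and mesoderm differed in the B2_Mm1 names. B2_Mm1a was 2.68-fold lower in cystic EBs (log2 fold change -1.42, SE 0.16, edgeR adjusted p = 0.00924) and B2_Mm1t 1.99-fold lower (-0.99, SE 0.15, adjusted p = 0.0338), and 1.51% of all names were called lower. B2_Mm2 (-0.40, adjusted p = 0.168), B3 (-0.17, adjusted p = 0.461) and B3A (-0.19, adjusted p = 0.522) did not pass. These calls were sensitive to single libraries and to the reads used. B2_Mm1t also missed without the 100 most-read elements of each name (-0.77, adjusted p = 0.0635) and on reads above both neighbours (-0.96, adjusted p = 0.13). No name was called without the day 10 EB library (B2_Mm1a adjusted p = 0.0862) or without mesoderm B (adjusted p = 0.0788), and 1 name was called without the day 15 library or without mesoderm A.

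Within the yolk sac, all 5 names were higher in ysE than in mesoderm, where 10.6% of all names were called higher. The log2 fold changes in edgeR were 1.30 for B2_Mm1a (SE 0.16, adjusted p = 0.0104), 1.2 for B2_Mm1t (SE 0.15, adjusted p = 0.0114) and 1.07 for B2_Mm2 (SE 0.12, adjusted p = 0.01). B3 and B3A followed at 0.62 (adjusted p = 0.0205) and 0.55 (adjusted p = 0.043), and these 2 calls were the less stable. B3A lost its call in the fit of the ysE and mesoderm libraries alone (adjusted p = 0.0907), with the replicate block (adjusted p = 0.0913) and without any one library other than ysE A (adjusted p from 0.0808 to 0.158). B3 lost its call with the replicate block (adjusted p = 0.0619) and without any one EB or mesoderm library (adjusted p from 0.0502 to 0.096). The ysE markers found in mesoderm, at 14.8% of the ysE level, move in the same direction as the B2 reads, and their part was not tested. Without mesoderm A no name was called (B2_Mm1a, B2_Mm1t and B2_Mm2 each at adjusted p = 0.0711), and 3 names were called without mesoderm B or without either EB library. The 3 comparisons share their libraries and are not independent of each other.

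**Figure D2:**
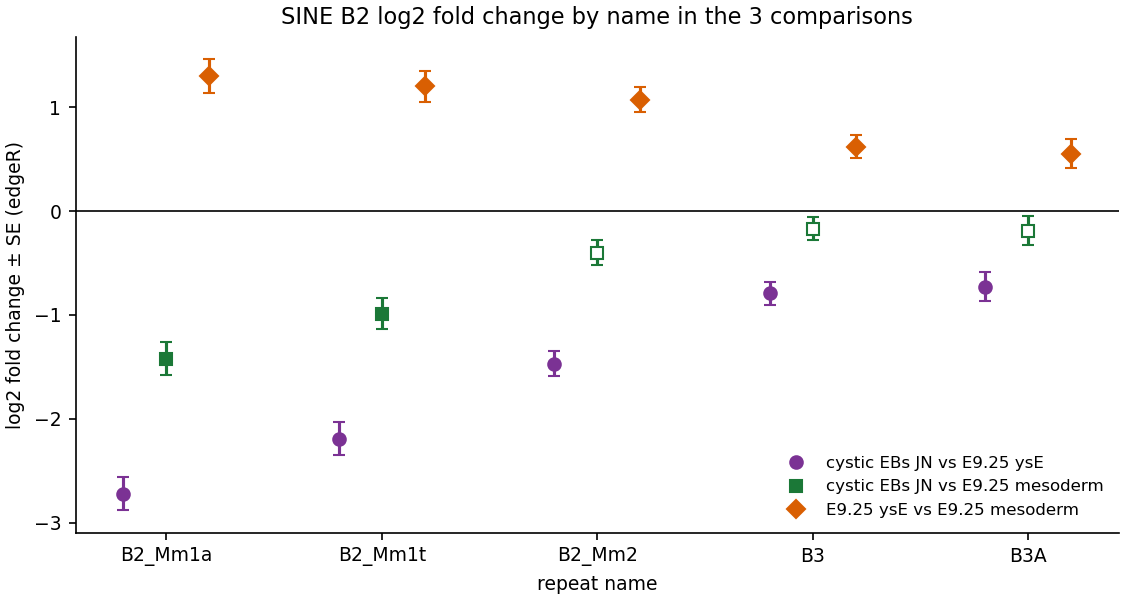
Log2 fold change with its standard error from edgeR for the 5 SINE B2 names in the 3 RNA comparisons (first group over second). Filled symbols passed an adjusted p of 0.05 over all 1193 names. Cystic EBs against ysE runs from -2.72 for B2_Mm1a to -0.73 for B3A, and open symbols for B2_Mm2, B3 and B3A against mesoderm lie between -0.40 and -0.17.

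The excess in ysE reached beyond the most-read copies for B2_Mm1a, whereas B3 and B3A did not show it at the lowest ranks. B2 reads were concentrated, as the top 1% of elements (2026) held 61.49% and 62.56% of them in ysE, 57.53% and 56.7% in mesoderm and 38.89% and 43.82% in cystic EBs. No element held more than 0.324% of the B2 reads of a library. With elements ranked by their mean over the 6 libraries, the 100 most-read B2_Mm1a copies summed to 20628 and 23408 RPM (reads outside RNA-gene repeats as the total) in ysE and to 1400 and 1997 RPM in cystic EBs. The 6712 copies from rank 3001 downward still held 2767 and 3050 RPM in ysE against 1101 and 1170 in cystic EBs. The 76489 B3 elements from rank 3001 downward held 5049 and 5120 RPM in ysE and 5152 and 5188 in cystic EBs. The 49221 B3A elements of these ranks were lowest in ysE, with 1792 and 1742 RPM against 2190 and 2162 in EBs and 2124 and 2163 in mesoderm. At ranks 101 to 500 both names did show the excess, with 4833 and 5861 RPM in ysE against 1113 and 1457 in EBs for B3. For B3A these ranks held 3160 and 3918 RPM against 875.3 and 1153. The lowest ranks take in far more elements for B3 and B3A than for B2_Mm1a, so the names are compared there at unlike read levels. An element high in a single group ranks high by construction, so these sums describe the ranks and are not tested.

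Of the 202569 elements, 25583 (12.63%) had a mean of at least 10 reads and entered a test of single elements, and 35265 (17.41%) had no read in any library. An element could enter on its ysE reads alone, so the counts that follow are a description. Against ysE, 6267 of the tested B2 elements were lower in cystic EBs and 390 were higher (edgeR, adjusted p under 0.05), where 10.1% of 188626 tested repeat elements were lower and 5.64% higher. The lower ones were 2489 of 4962 B2_Mm1a, 1444 of 3854 B2_Mm1t, 1377 of 7428 B2_Mm2, 630 of 6118 B3 and 327 of 3221 B3A elements. The median log2 fold change was -1.99 over the tested B2 elements and 0.07 over all tested elements. No B2 element kept its call when any EB or ysE library was left out (0 called in each of these 4 fits), and DESeq2 on all libraries called 11399 lower and 935 higher. Between ysE and mesoderm, 600 B2 elements were higher and 42 lower in ysE, against 1.42% and 0.522% of all elements (medians 1.26 and 0.05), and 0 were called when any of the 6 libraries was left out or when the ysE and mesoderm libraries were fitted alone. Other settings called more in that comparison, with 1129 higher and 50 lower under RLE factors, 2383 and 148 over elements with a mean of at least 30 reads, and 7990 and 506 in DESeq2. Between cystic EBs and mesoderm edgeR called 0 B2 elements higher and 0 lower, as for all repeat elements (0% and 0%). In that comparison 6481 B2 elements had an unadjusted p under 0.05, and DESeq2 called 4324. Over elements with a mean of at least 30 reads, edgeR called 139 higher and 1120 lower. The shares of all repeat elements under unadjusted p, DESeq2, RLE factors or a mean of 30 reads are not reported here. Whether those B2 counts exceed the background therefore cannot be read from them.

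The most-read B2_Mm1 copies followed the order seen for their names. They were chosen by their mean over the 6 libraries, which favours copies with many ysE reads. Their order and p-values, here and for the most-read copies of the other names below, are therefore a description. The most-read element, a B2_Mm1a copy at chr5:115306908-115307095 inside the long noncoding RNA gene Gm13830, held 711 and 898 reads in EBs, 8682 and 16623 in ysE, with 2919 and 3944 in mesoderm (raw counts, with ysE B sequenced deepest). The 3 groups did not overlap, and the log2 fold change of cystic EBs over ysE was -3.98 (SE 0.28, edgeR adjusted p = 0.0155). A copy at chr5:115353173-115353364, 4215 bases from Cox6a1, a subunit gene of cytochrome c oxidase, held nearly the same counts (707 and 875, 8619 and 16426, 2881 and 3908), and whether the same reads were counted at both was not tested. The third, at chr5:114707215-114707410 in Gm34931 and 165 bases from an H3K4me3 peak, held 1152 and 560 reads in EBs, 6154 and 11812 in ysE, with 2456 and 3048 in mesoderm (-3.43, adjusted p = 0.0156).

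Among B2_Mm1t elements, the copy at chr1:17234598-17234790, 29021 bases from the nearest annotated gene, held 383 and 401 reads in EBs, 6277 and 12694 in ysE, with 769 and 1123 in mesoderm. Here mesoderm lay closer to the EBs than to ysE, with log2 fold changes of 3.26 for ysE over mesoderm (edgeR adjusted p = 0.042) and -4.60 for cystic EBs over ysE (adjusted p = 0.0155). A copy at chr5:40328262-40328443 within a pseudogene had counts close to it (348 and 371, 6217 and 12580, 738 and 1063) and matched 9 B2 elements on 8 chromosomes within 5% in all libraries. The copy at chr11:69075725-69075919, 2163 bases from the small nucleolar RNA gene Snord118, differed less, with 1763 and 1457 reads in EBs, 5800 and 9610 in ysE, with 3244 and 3968 in mesoderm (-2.30, adjusted p = 0.0155).

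The 3 leading B2_Mm2 elements differed from each other. The copy at chr4:62479695-62479889 overlapped an H3K4me3 peak, 122 bases from Bspry, a gene of a B-box and SPRY domain protein. It held 647 and 705 reads in EBs, 4236 and 7901 in ysE, with 290 and 532 in mesoderm. ysE stood above both other groups, with log2 fold changes of 3.84 over mesoderm (edgeR adjusted p = 0.042) and of -3.18 for cystic EBs over ysE (adjusted p = 0.0156). A piece at chr11:48863105-48863178 near Irgm1, an interferon-induced GTPase gene, held 244 and 213 reads in EBs, 3652 and 8699 in ysE, with 865 and 818 in mesoderm. By contrast, the copy at chr12:54724430-54724585 rested on a single library, with 6021 reads in mesoderm A against 1654 in mesoderm B and 817 to 2677 elsewhere, and it passed no test. A B3A piece next to it (chr12:54724633-54724658) had nearly the same counts.

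The 3 most-read elements of B3 and of B3A passed no test in any of the 3 comparisons. The 3 of B3 were pieces of 19 bases in or within 74 bases of H3K4me3 peaks on chromosome 6, such as chr6:128839126-128839144 with 1667 and 3041 reads in EBs, 1456 and 3179 in ysE, with 1060 and 1608 in mesoderm. A B3A piece inside Ndufb1, a gene of mitochondrial complex I (chr12:101968247-101968329), held 1579 and 2047, 2080 and 2482, and 1936 and 2068 reads in the same order (cystic EBs over ysE -0.41, edgeR adjusted p = 0.307). Another B3A element in Ndufb1 (chr12:101969091-101969247) had nearly the same counts.

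The largest changes belonged to elements with no read in a whole group. They were chosen by the size of their change among called elements, and some entered the test on their ysE reads alone. Their folds and p-values, here and in the other direction, are therefore a description. A B3 element at chr6:57537231-57537399, 1679 bases from Ppm1k, a mitochondrial phosphatase gene of branched-chain amino acid breakdown, held 0 and 0 reads in EBs, 1246 and 2291 in ysE, with 2 and 1 in mesoderm. Taking 3 reads per library as the floor, it was at least 517-fold higher in ysE than in cystic EBs (edgeR adjusted p = 0.0155). A B3 element at chr11:117613897-117614062 in the noncoding gene Gm35170 held 444 and 826 reads in ysE and 0 in the 4 other libraries. It was at least 185-fold above cystic EBs and 160-fold above mesoderm, and it entered the test on its ysE reads alone. A neighbouring repeat carried the same counts. A B2_Mm2 element at chr4:135989254-135989459, 2010 bases from Pithd1, held 2136 and 3385 reads in ysE, 42 and 39 in cystic EBs and 0 and 0 in mesoderm, at least 709-fold higher in ysE than in mesoderm (adjusted p = 0.0247). The B3 element at chr4:135992565-135992755 had nearly the same counts in all 6 libraries.

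In the other direction, a B3A element at chr14:4108793-4108965 inside Gm32966 held 278 and 319 reads in EBs, 0 and 0 in ysE, with 12 and 148 in mesoderm. It was at least 105-fold higher in cystic EBs than in ysE (edgeR adjusted p = 0.0494), and the B3 element at chr14:4101659-4101864 in the same gene followed it closely. A B3 element at chr5:91862914-91863108 in Gm36357 held 126 and 181 reads in mesoderm, 43 and 64 in cystic EBs and none in ysE, at least 62.4-fold higher in mesoderm than in ysE (adjusted p = 0.0438). The B2_Mm2 element at chr4:145662564-145662743, 7954 bases from the zinc finger gene Zfp980, held 63 and 109 reads in mesoderm, 77 and 86 in cystic EBs and none in ysE.

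Where an element lay relative to genes separated the B2_Mm1 names from the rest. By RefSeq gene spans, 7.623% of the B2 elements used here lay inside protein-coding genes and 10.74% inside other genes only. A further 26.77% lay outside genes but within 5 kb, 41.05% at 5 to 50 kb and 13.49% at over 50 kb. The elements come from the authors' intergenic table, so these shares describe that table and not all B2 copies of the genome. For B2_Mm1a the mean of ysE was 5.216 times that of cystic EBs inside protein-coding genes and 7.453 times at over 50 kb from any gene, where it was 33.98 against 4.559 RPKM (32.11 and 35.85 against 4.029 and 5.09). B2_Mm1t kept a ratio of 3.524 to 5.749 across the 5 places. B2_Mm2 dropped from 3.44 at 5 to 50 kb to 1.172 at over 50 kb. B3 and B3A turned around, with ratios of 2.457 and 2.615 at 5 to 50 kb and of 0.6889 and 0.6557 at over 50 kb, where ysE was the lowest group (for B3, 0.237 and 0.2111 RPKM in ysE, 0.3285 and 0.322 in EBs, and 0.3474 and 0.3347 in mesoderm). These ratios have no test of their own. Copies with near-equal counts on several chromosomes were found for the B2_Mm1 names only, and their source copy is uncertain. How reads with several alignments were counted is not known. The part of such reads in the B2_Mm1 values by place, and by length and peak distance below, was not tested.

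**Figure D3:**
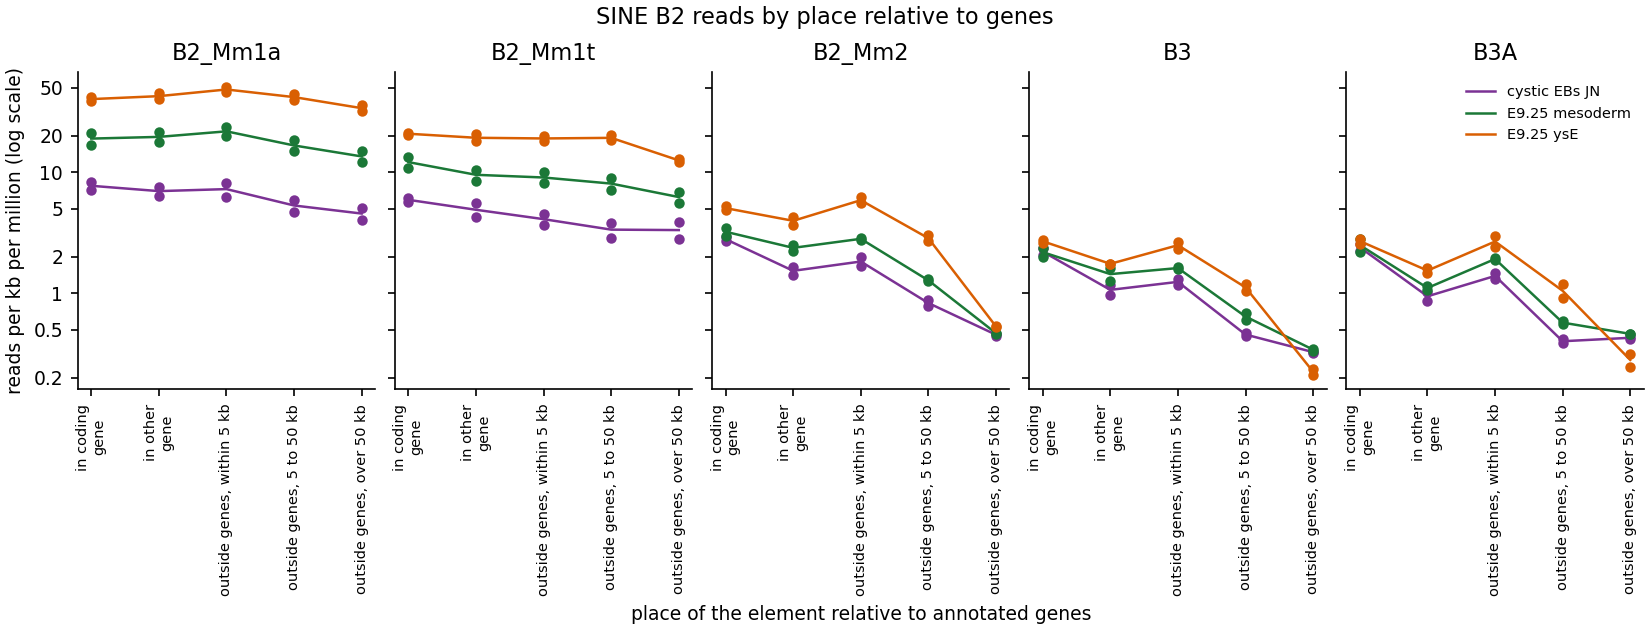
RPKM, with the reads outside RNA-gene repeats as the total (log axis), by the place of the element relative to RefSeq genes, for each SINE B2 name. Points are libraries and lines join the means of 2 libraries. For B2_Mm1a ysE stays highest out to over 50 kb (33.98 against 4.559 in cystic EBs), whereas for B3 and B3A it falls below both other groups there.

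The ratio also differed by length. Among B2_Mm1a elements the ratio of ysE to cystic EBs was 2.22 for the 924 elements under 100 bases, 5.237 and 5.865 in the classes between 100 and 180 bases, and 7.197 for the 6673 elements of 180 bases or more. For B3 and B3A it stayed between 1.636 and 1.996 at every length. Distance to H3K4me3 peaks of the E12.5 yolk sac was set beside the reads as well. Of the B2 elements, 2.975% lay in or within 1 kb of a peak, and 45.3% lay over 50 kb away. B2_Mm1a elements over 50 kb from a peak still held 5.847 and 6.463 RPM per element in ysE, 2.232 and 2.8 in mesoderm and 0.7518 and 0.9342 in cystic EBs. B3 elements at that distance held 0.07155 and 0.06278 in ysE, below the 0.08032 and 0.08271 in cystic EBs. There ysE also lay below cystic EBs for B3A, B4, MIR and L1 elements and for B1 (0.102 and 0.0878 against 0.1126 and 0.1158). It lay above them for B2_Mm1t and B2_Mm2.

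Reads shared with the surroundings were also set aside. Counting only the reads above the larger count of the neighbouring elements was an alternative chosen after the data were seen. It kept 61.39% and 61.87% of B2 reads in ysE, 49.7% and 53.74% in mesoderm, and 32.57% and 35.31% in cystic EBs. Across libraries, it kept 70.24% to 88.54% for B2_Mm1a, 62% to 81.86% for B2_Mm1t and 17.67% to 32.26% for B2_Mm2. For B3 it kept 5.98% to 9.151% and for B3A 2.265% to 7.507%, so the B3 and B3A fits below rest on few of their reads. On these reads the log2 fold changes between cystic EBs and ysE were -3.94 for B2_Mm1a, -3.43 for B2_Mm1t, -3.20 for B2_Mm2 and -1.28 for B3, while B3A no longer passed (-0.41, edgeR adjusted p = 0.177). Between ysE and mesoderm they were 2.56, 2.47, 2.89 and 1.32 for the same names, so that B2_Mm2 stood above the B2_Mm1 names, and B3A did not pass (0.45, adjusted p = 0.141).

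The Pol III machinery and the factors known to act on SINE chromatin were measured in the same libraries, by edgeR over 23265 RefSeq transcripts. The deposited RPKM are scaled by library totals and the fits by TMM factors, and the counts of called genes depended on this choice. With library totals in place of TMM, an alternative chosen after seeing the data, the median log2 fold change of all transcripts moved by 0.46 (cystic EBs over ysE), 0.19 (cystic EBs over mesoderm) and -0.27 (ysE over mesoderm). Under TMM, 8 of 24 Pol III genes were lower and 2 higher in cystic EBs than in ysE, where 27.2% of all transcripts were lower and 33.7% higher (list median -0.15, all transcripts 0.18). On library totals the split turned to 2 lower and 11 higher, against 16.8% and 47.2% of all transcripts (list median 0.32, all transcripts 0.64), and 4 genes were called the same way on both scales. Among the lower genes under TMM were the polymerase subunits Polr3b, Polr3c, Polr3e, Crcp and Polr1d and the TFIIIC subunits Gtf3c2 and Gtf3c6. Polr3e fell from 15.9 and 17.3 RPKM in ysE to 9.92 and 9.06 RPKM in cystic EBs (log2 fold change -1.16, edgeR adjusted p = 0.000413), and it was lower on library totals too (-0.70, adjusted p = 0.00368). The other lower genes named here lost their calls on that scale (-0.47 to -0.02). Polr1c, a subunit shared by Pol I and Pol III, was higher in cystic EBs (0.62, edgeR adjusted p = 0.015), as was Gtf3c3 (0.51, adjusted p = 0.0266), and both were higher on library totals (1.08 and 0.97). Maf1, the repressor of Pol III, did not pass on either scale (0.03, adjusted p = 0.928 under TMM, and 0.49, adjusted p = 0.121).

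Between ysE and mesoderm, 6 Pol III genes were higher in ysE and 1 lower, against 22.8% and 26.3% of all transcripts (list median 0.12, all transcripts -0.10, TMM). On library totals 1 was higher and 1 lower, against 16.3% and 34% (list median -0.15, all transcripts -0.37). Polr3g, the subunit typical of stem cells and early embryos, was the one higher on both scales, with 10.1 and 8.79 RPKM in ysE and 5.73 and 6.43 RPKM in mesoderm (0.87, edgeR adjusted p = 0.0085 under TMM, and 0.61, adjusted p = 0.0367). Polr3a, Polr3b, Polr3e and Crcp were also among the higher genes under TMM only, and the one lower gene on both scales was Polr3k (-0.85, adjusted p = 0.00571 under TMM). Between cystic EBs and mesoderm, 3 were higher (Polr3g, Polr1c and Gtf3c1) and 4 lower (among them Polr3e, Polr3k and Polr1d), against 21.1% and 21.4% of all transcripts, and on library totals 5 were higher and 2 lower, against 27.1% and 16.2%. Polr3e and Polr1d lost their calls there (-0.38 and -0.24).

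Of 15 genes for chromatin and RNA factors linked to B2, 3 were called higher and 1 lower when EBs were set against ysE (list median 0.17), against 33.7% and 27.2% of all transcripts. On library totals 8 were higher and 0 lower (list median 0.63), against 47.2% and 16.8%. Adnp, of the ChAHP complex that binds B2 elements, held 13.9 and 12.1 RPKM in cystic EBs and 5.85 and 6.98 RPKM in ysE (0.67, edgeR adjusted p = 0.0107). The de novo DNA methyltransferase gene Dnmt3b held 39.3 and 17.4 RPKM in cystic EBs and 7.39 and 8.2 RPKM in ysE (1.52, adjusted p = 0.00849). Ezh2, a Polycomb enzyme that B2 RNA is known to bind, was also higher (0.76, adjusted p = 0.00199), and Dnmt3a was lower (-0.78, adjusted p = 0.00449). The calls of Adnp, Dnmt3b and Ezh2 were kept on library totals (1.13, 1.98 and 1.22), and that of Dnmt3a was lost (-0.31, adjusted p = 0.122). The histone H3K9 methyltransferase gene Suv39h1 was lower in cystic EBs (-1.07, adjusted p = 0.00118) and in ysE (-0.90, adjusted p = 0.00143) than in mesoderm, and Dnmt3a was higher in ysE than in mesoderm (1.04, adjusted p = 0.00154), and these 3 calls were kept on library totals (-0.88, -1.17 and 0.77). Against mesoderm, Adnp, Chd4, Dnmt3b and Ezh2 were higher and Suv39h1, Dnmt1 and Hsf1 lower in cystic EBs (4 and 3 of 15, against 21.1% and 21.4% of all transcripts). On library totals 4 were higher and 1 lower, without Dnmt1 (-0.38) and Hsf1 (-0.44), against 27.1% and 16.2% of all transcripts. Between ysE and mesoderm 1 was higher and 1 lower, against 22.8% and 26.3%, and on library totals 1 and 3, against 16.3% and 34%. The number of genes of both lists that were called depended on single libraries in each comparison. It fell when some libraries were left out and rose when others were. The shares of all transcripts called in those fits are not reported here. A change particular to the lists therefore cannot be told from a general one.

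DNA methylation of B2 elements was measured at shallow depth. The 6 WGBS libraries held 3728717 to 5542839 CpG calls with 1.796 to 2.207 reads each on average, and 70763 to 101429 reads at CpGs inside B2 elements. Values are therefore sums over elements, with Wilson 95% intervals of 0.259 to 1.38 points to either side, which cover counting error only. Chromosomes 19, X and Y held no calls, chromosome 13 almost none, and chromosome 15 none in liver, so these are not analysed here or rest on fewer libraries. Chromosome 4 supplied 12544 B2 reads in ysE CxF and 5961 to 8432 in the other libraries.

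B2 elements were less methylated in ysE than in liver and cystic EBs. The methylated share of the reads, given for CxF and then FxC, was 62.2% and 56.25% in ysE. It was 70.87% and 74.64% in liver, and EBs reached 77.8% and 70.38%. ysE lay below both other tissues without overlap, while liver and EBs overlapped. The mean of ysE differed from liver by -13.53 points (-8.677 in CxF and -18.39 in FxC), and that of EBs from ysE by 14.87 points (15.61 and 14.14). Over all repeats EBs stood 22.46 points and over L1 LINEs 29.32 points above ysE.

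By name, the mean level (ysE, then liver, then EBs) was 64.62%, 76% and 75.62% for B2_Mm1a and 59.69%, 71.95% and 70.3% for B2_Mm1t. B2_Mm2 was the least methylated of the 5 names in each tissue, at 50.36%, 61.39% and 60.94%. B1 elements as a class stood at 52.43%, 63.87% and 65.2%. CpG reads fell on 3.345% (ysE CxF) to 7.003% (EBs FxC) of the B2_Mm2 elements, so its values describe these and not all copies. The B2_Mm2 libraries stood at 52.85% and 47.88% for ysE, 59.04% and 63.73% for liver, and 65.83% and 56.06% for EBs, so ysE did not overlap the others while liver and EBs did. B3 stood at 57.31%, 72.05% and 75.07%, and B3A at 61.49%, 75.43% and 78.36%. A fit by limma on log2 ratios of methylated to unmethylated reads over 533 repeat names called 4 of the 5 names lower in ysE than in liver, where 94.4% of all names were lower. B3 and B3A each differed by -0.94 (adjusted p = 0.0116 and 0.0112) and B2_Mm1a and B2_Mm1t each by -0.80 (adjusted p = 0.029 and 0.0297), against a median of -1.22 over all names, and B2_Mm2 did not pass (-0.65, adjusted p = 0.0746). No name was called without ysE FxC or without liver FxC, 1 without liver CxF and 2 without ysE CxF.

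Against ysE, cystic EBs were higher in B3 (1.18, limma adjusted p = 0.00125), B3A (1.19, adjusted p = 0.00105) and B2_Mm1a (0.77, adjusted p = 0.0343), where 97.6% of all names were higher with a median of 1.98. B2_Mm1t (0.68, adjusted p = 0.0608) and B2_Mm2 (0.63, adjusted p = 0.0834) did not pass. All 5 names passed without EBs FxC, but 2 without ysE CxF, liver CxF, liver FxC or EBs CxF, where B2_Mm1a was not called (adjusted p = 0.112, 0.0663, 0.0663 and 0.14). Between cystic EBs and liver limma called 0 of the 5 names (0 at an unadjusted p under 0.05), where 37.1% of all names were higher and 0.188% lower. The differences ran from -0.12 for B2_Mm1t to 0.25 for B3A, each with an SE of 0.36, and their sign depended on single libraries for all 5 names.

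**Figure D4:**
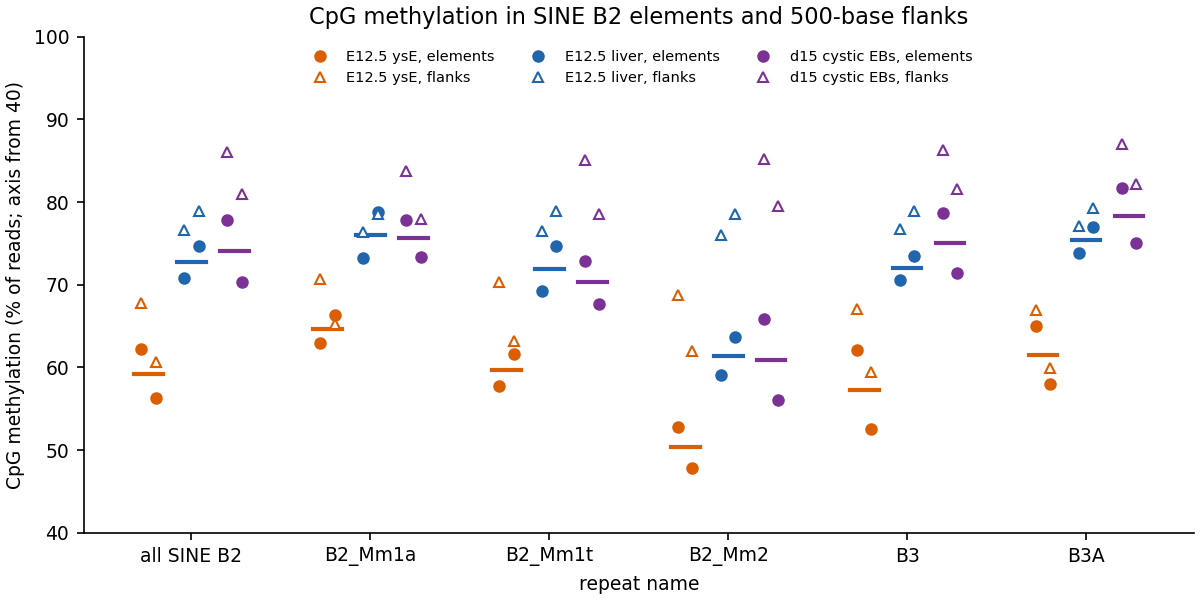
CpG methylation (percent of reads, axis from 40) in all SINE B2 elements and by name. Filled circles are libraries, bars are means of 2 libraries, and open triangles are the 500-base flanks outside any B2 element. The ysE mean lies lowest in each case, and B2_Mm2 differs from its flanks by -23.5 to -14.1 points.

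Methylation dipped towards the element in most names and tissues. B2_Mm2 elements differed from their 500-base flanks by -23.5 to -14.1 points in the 6 libraries, whereas the other 4 names ranged from -12.6 to 1.02 points. In bins of 50 bases around the centre, the bin that ends at the centre had the lowest mean for all 5 names in liver and EBs, and for B2_Mm2 and B3 in ysE. For B2_Mm2 this bin held 50.18% in ysE, 59.17% in liver and 60.3% in EBs, and at 1000 to 1500 bases the means were 61.57%, 76.43% and 82.67%. B2_Mm1t in EBs reached a similarly deep point, from 85.89% in its highest bin to 64.61%, against 83.97% to 60.3% for B2_Mm2. For B3A the highest and lowest bins were 80.76% and 71.34% (liver) and 86.19% and 75.12% (EBs). Around B3A in ysE only the more distant surroundings were lower than the element. The level was 63.52% within 100 bases of the centre, 64.92% at 100 to 300 bases and 59.1% at 1000 to 1500 bases. The mean of B2_Mm1a in ysE was also lower at 1000 to 1500 bases (62.65%) than within 100 bases (65.01%), whereas those of B2_Mm1t, B2_Mm2 and B3 were not. For B2_Mm1a this rested on FxC (60.01% against 65.98%), as CxF went the other way (65.29% against 64.04%). The libraries of B2_Mm1t were split too (63.56% against 59.85% in CxF, 57.87% against 60.92% in FxC). These 2 names therefore cannot be set apart in this respect.

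**Figure D5:**
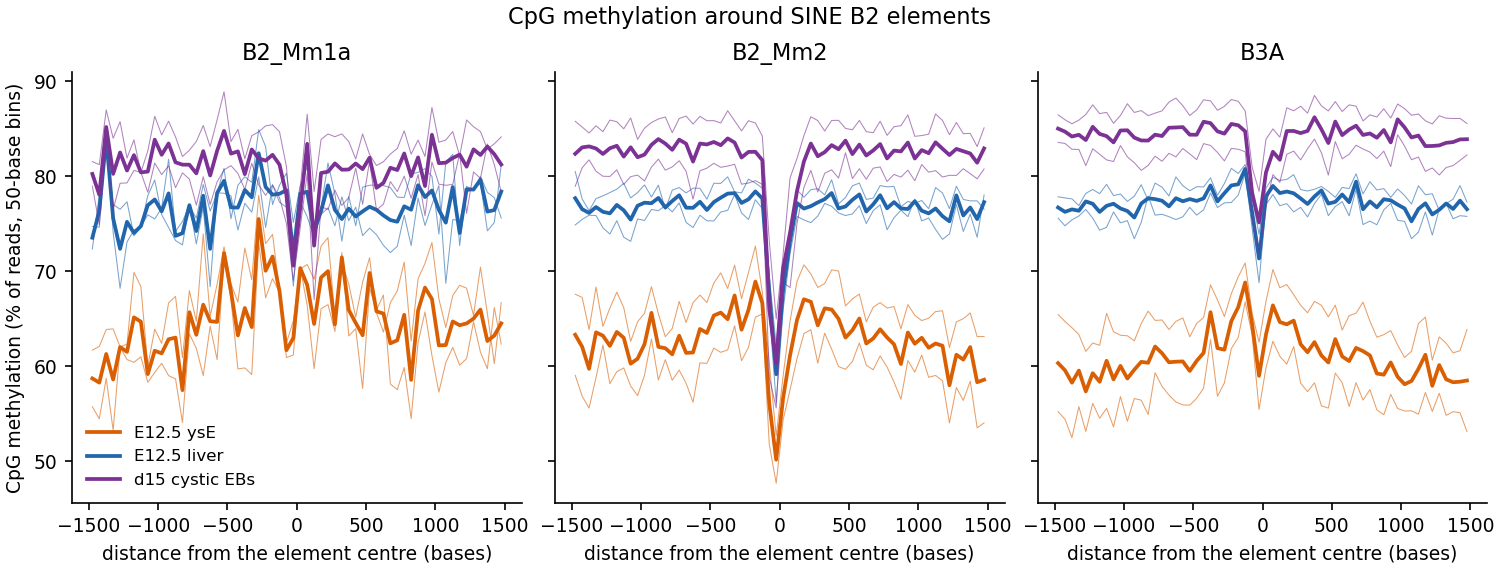
CpG methylation (percent of reads) in 50-base bins by distance from the element centre in bases, for B2_Mm1a, B2_Mm2 and B3A. Thick lines are means of 2 libraries and thin lines the libraries. B2_Mm2 dips to 50.18% (ysE), 59.17% (liver) and 60.3% (EBs) next to the centre.

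Distance to promoters and RNA reads were set beside methylation as a description, with no test. In ysE, B2 elements over 50 kb from an H3K4me3 peak were methylated at 52.73% ± 5.04 (SD, n = 2), against 62.67% ± 3.51 at 5 to 50 kb, 64.94% ± 3.97 at 1 to 5 kb and 57.89% ± 2.79 in a peak or within 1 kb, so the level was lower at both ends of the range. Liver held 72.25%, 73.27%, 73.5% and 69.16% in the same classes, and EBs 76.73%, 73.04%, 72.19% and 67%. Over all names in ysE, the methylation level ran from 56.24% ± 5.43 in elements with no RNA read to 66.35% ± 2.12 in those with a mean of at least 100 reads (60.08% and 52.4% against 64.85% and 67.85% in the libraries). Liver held 72.91% and 76.66% in these outer classes, and the 5 classes of EBs, from no read upward, held 76.6%, 74.66%, 72.25%, 73.23% and 75.83%. The classes pool the names in different shares, and within names in EBs the outer classes held 69.54% and 53.63% for B2_Mm2, 76.77% and 69.39% for B3 and 78.05% and 73.56% for B3A, but 61.38% and 76.69% for B2_Mm1t and 62.96% (1 library) and 77.14% for B2_Mm1a. Within names in ysE the outer classes held 50% (1 library) and 67.31% for B2_Mm1a, 40.99% and 66.59% for B2_Mm1t, 53.51% and 67.3% for B3, and 60.09% and 69.56% for B3A, so the level was higher in the most-read class for 4 of 5 names. For B2_Mm2 in ysE the classes from no read upward held 48.47%, 49.97%, 49.93%, 54.58% and 44.27%, and the last of them rested on 228 and 247 CpG reads. RNA and methylation came from embryos of different age and strain. Among the 1260 elements with at least 5 reads in each tissue, medians were 72% (ysE), 83.33% (liver) and 85.71% (EBs), and ysE was below liver in 60.48% of them.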

How the data were processed

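RNA (6 libraries of rRNA-depleted RNA), WGBS (6) and H3K4me3 peaks of 1 yolk sac sample were used. The authors aligned reads to mm10 with GSNAP and deposited read counts per repeat element and per RefSeq transcript, RPKM per transcript, and CpG calls with the percent of methylated reads and the coverage, made with BisSNP. Peaks were called with MACS 1.4.2, and the deposited peak scores were not used. How reads with several alignments were counted is not given in the sources used here, and the strand of counting is not stated. The repeat table names class and name in swapped columns, which was corrected by their content. Counts were summed by repeat name and tested with edgeR 4.0.16 (TMM, quasi-likelihood) over all 1193 names, 188626 elements with a mean of at least 10 reads, or 23265 transcripts, with the 3 groups in 1 fit. The methylated reads of a call were taken as coverage times percent, summed by name, and tested with limma 3.58.1 on log2 ratios with a pseudocount of 1 over the 533 names with at least 200 reads in each library. Differences past an adjusted p (Benjamini-Hochberg) of 0.05 were called. DESeq2 1.42.0 was an alternative. The scripts were tested on simulated data. Labels do not say that libraries of a group came from separate cultures beyond pooled litters, so p-values measure the spread between these libraries. In the limma fit each B2 name had an SE of 0.36 in every comparison. Those p-values therefore rest on a spread shared over the names and not on that of each name. Named elements are the 3 most read of each name by mean CPM and the 2 largest rises and falls per comparison among called elements without overlap. The gene lists are given by their counts, with values for some members, and not every member is reported here by name. The members, lists and comparisons were chosen with earlier results of these data known. Sequences and gene spans are from RefSeq GRCm38.p6 promoter windows and genes (chromosome 18 not searched), and of the CpG calls inside these windows, 99.9% of 36315 fell on a CpG. The E12.5 RNA libraries and those of ES clone A9 were not used here.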

Additional observations from a re-analysis of the deposited data

How the results depend on the processing

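The direction of each B2 name between cystic EBs and ysE and between ysE and mesoderm was kept under each alternative run (RLE factors, DESeq2, no filter, RNA-gene repeats left out, each library left out, the 100 most-read elements of each name left out, reads above both neighbours). Leaving out libraries gave 3 to 5, 0 to 2 and 0 to 5 called names in the 3 RNA comparisons (cystic EBs against ysE, against mesoderm, ysE against mesoderm), 0 to 5434, 0 to 0 and 0 to 0 called elements, and 8 to 17, 4 to 17 and 2 to 12 called genes. The shares of all transcripts called in the fits with a library left out are not reported here. Library totals in place of TMM gave 21, 12 and 6 called genes of the 2 lists, with other splits of higher and lower. Cystic EBs against mesoderm had 1 called name without the 100 most-read elements of each name and 1 on reads above both neighbours, where B3 (0.04) and B3A (0.05) changed sign. DESeq2 called 12334, 4324 and 8496 B2 elements in the 3 comparisons. A mean of at least 30 reads gave 1259 and 2531 in the last 2, and RLE factors gave 1179 for ysE against mesoderm. The shares of all repeat elements under these settings are not reported here. Whether ysE and mesoderm libraries of the same letter came from the same litters is not stated. Their deviations correlated at 0.0217 over repeat names and -0.102 over transcripts, which cannot decide this with so few libraries. With the replicate block 3 names and 0 elements were called, against 4 and 0 in the same 4 libraries with no replicate block. The cross as a replicate block in WGBS (correlations 0.0213, 0.0999 and -0.024) gave 4, 0 and 4 called names. A restriction to the chromosomes covered in all WGBS libraries gave 4, 0 and 3 called names. The library totals, the reads above both neighbours, and this restriction for the methylation level, were chosen after seeing the data.

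For methylation, leaving out libraries gave 0 to 5 called names for ysE against liver, 0 to 0 for cystic EBs against liver and 2 to 5 for cystic EBs against ysE. Cystic EBs against liver then ran from -0.25 to 0.19 for B2_Mm1a, -0.31 to 0.08 for B2_Mm1t, -0.32 to 0.28 for B2_Mm2, -0.05 to 0.52 for B3 and -0.03 to 0.53 for B3A. CpG calls with at least 3 reads gave 2 names for ysE against liver, and a minimum of 1000 reads per name gave 5 for cystic EBs against ysE. Medians over elements moved the level, in ysE to 68.21%, 72.79% and 72.67% at 5, 10 and 20 reads, in liver to 100%, 82.31%, 82.96% and 81.14% at 1, 5, 10 and 20 reads, and in cystic EBs to 100%, 83.75% and 81.59% at 1, 5 and 10 reads, and CpG calls with at least 3 reads moved liver to 69.87%. The mean B2 share of reads in cystic EBs, ysE and mesoderm was 3.9%, 12.93% and 6.398% without the 100 most-read elements of each name, 1.309%, 3.797% and 2.033% of all repeat reads, and 2.775% and 21.94% in the first 2 on reads above both neighbours. The causes of these shifts were not tested.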
